A study of Mus musculus with 12 samples.

Results

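Chromatin accessibility was compared between untreated Baf60a knockout (KO) and wild type (WT) bone marrow-derived macrophages (BMDMs) on an ApoE knockout background, using 4 of the 12 ATAC-seq libraries of the series, 2 per genotype. The libraries were chosen by their labels, which give the genotype, the absence of treatment and the ApoE KO background. All 4 carry a floxed Baf60a allele and lack ApoE. The KO libraries are positive for Lyz2-Cre, a recombinase driven from the lysozyme locus of myeloid cells, and the WT libraries lack the Cre, so the label WT means floxed without Cre and not an unmodified mouse. The cells were cryopreserved before library preparation with a Nextera kit, and nothing in the labels says whether the 2 replicates of a genotype came from separate mice or cultures, so every p-value measures only the spread between these libraries, which may be technical. Where a result needed libraries outside these 4, the 4 oxidised LDL (oxLDL, 50 µg/ml for 48 h) libraries of the same background were used.

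Baf60a, encoded by Smarcd1, is an accessory subunit of the SWI/SNF (BAF) complexes, which slide and evict nucleosomes and so open DNA to transcription factors. Smarcd2 and Smarcd3 encode alternative subunits that take the same position in the complex. In ATAC-seq a transposase inserts adapters into open DNA, and a peak marks a stretch where insertions exceed the local background. Macrophage enhancers lie mostly away from gene starts and are bound by PU.1 and its partners, whereas gene starts, many of them rich in CpG, are open in most cell types.

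Each library was deposited as its own list of peaks, so sequencing depth cannot be read from them and no counting error is given. The strength of a peak below is the fold enrichment over local background that the authors' peak caller gave it, and the caller's score is a whole number that rises with the peak's significance. Peaks of the 4 lists that overlapped by at least 1 bp were merged into 53155 regions on the 19 autosomes, of which 22734 (42.8%) were called in all 4 libraries. Deposited lists carry a mark in their names, L001 for both WT libraries and L003 for both KO libraries, so the mark and the genotype cannot be told apart within these 4. The cell type label was checked against marker genes. A peak lay within 1 kb of an end of the gene for 25 to 28 of 32 macrophage identity genes in a library, with Spi1, Csf1r and Adgre1 in all 4. The same count was 0 to 1 of 12 for B cell markers, 2 to 4 of 19 for T and NK cell markers, 3 to 7 of 17 for neutrophil markers, 0 to 1 of 10 for mast cell and basophil markers, 5 to 8 of 14 for dendritic cell markers, 3 to 4 of 10 for erythroid and megakaryocyte markers and 2 to 3 of 14 for fibroblast and stromal markers, against 9631 to 10768 of all 20665 genes.

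At the targeted gene, no difference passed the test. The region over the start of Smarcd1 (mm10, chr15:99702016-99702515) had a fold enrichment of 2.34 and 3.86 in the WT libraries and 3.33 and 2.95 in the KO libraries, so that the groups overlapped (limma log2 difference on normalized strength -0.0022 ± 0.197 SE, adjusted p = 0.998). Which exons the floxed allele removes is not stated, so a peak over the start checks nothing about the deletion. Smarcd2 had a boundary region with a fold enrichment of 5.47 and 8.92 in WT and 8.24 and 5.17 in KO (log2 difference -0.25, limma adjusted p = 0.56), again with overlap. Smarcd3 had no region called in all 4 libraries. At Lyz2 the start region stood at 3.57 and 5.13 in WT and 5.14 and 5.18 in KO (log2 difference 0.11, limma adjusted p = 0.889). At Apoe, the gene knocked out in all 4, a region over the downstream boundary (chr7:19696102-19697076) was called in every library at a fold enrichment of 2.12 to 2.23. Another, chr7:19702305-19703408, inside the neighbouring gene Tomm40, was also called in all 4, at 1.82 and 2.15 in WT and 2.22 and 2.36 in KO (log2 difference 0.225, limma adjusted p = 0.6). Between them chr7:19701493-19701797 was called in both WT libraries (1.79 and 1.596) and in neither KO library, and 4 weak regions were called in only 1 or 2 libraries.

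Peak lists were longer in KO on average, but the replicates of each genotype differed more than the genotypes did. WT replicate 1 had 29064 peaks and WT replicate 2 had 39303, while KO replicate 1 had 44524 and KO replicate 2 had 33267. The means were 34184 ± 7240 (SD, n = 2) in WT and 38896 ± 7960 (SD, n = 2) in KO, a ratio of 1.14 (exact permutation test, two-sided, p = 0.667). With 2 libraries against 2 there are 6 arrangements of the labels, and no p under 0.33 is possible in any of the tests of single values below. KO replicate 1 stood above the other 3 libraries in number, width and strength alike. Without it, the mean of KO fell below that of WT (log2 ratio -0.039), and it did so too without WT replicate 1 (log2 ratio -0.015).

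**Figure D1:**
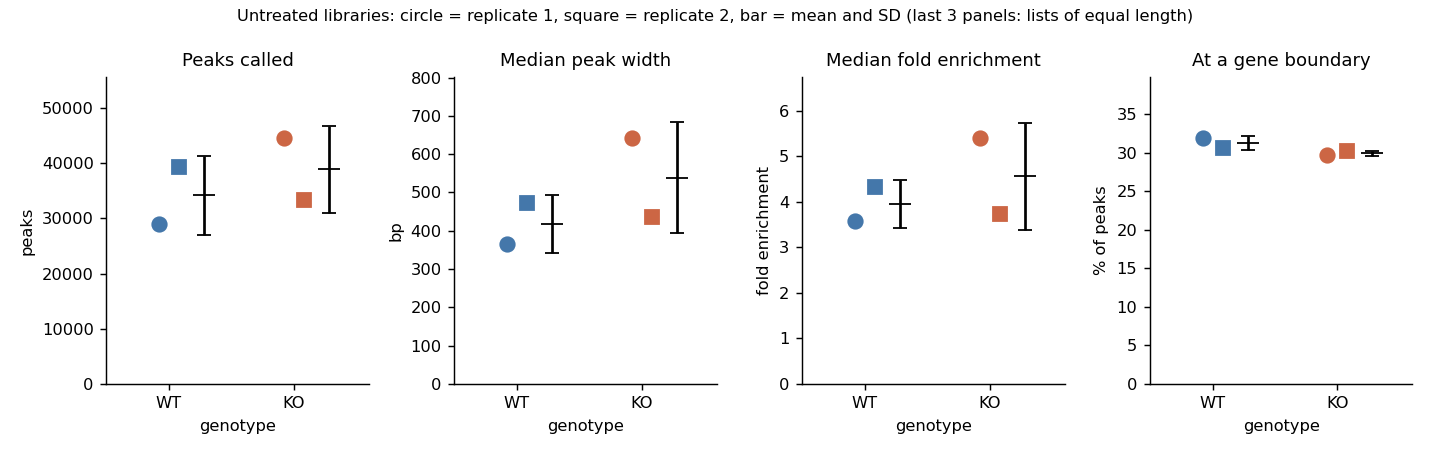
Number of peaks, median peak width in bp, median fold enrichment and percent of peaks within 1 kb of a gene boundary for each untreated library, by genotype; points are libraries, black bars the mean and SD of 2. KO replicate 1 is highest in the first 3 panels, the groups overlap there, and only in the last panel do both KO libraries (29.7 and 30.1%) lie on one side of both WT libraries (31.8 and 30.6%).

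Width and strength were compared in lists of equal length, the 29064 peaks with the highest score in each library. The median peak was 364 and 472 bp wide in WT and 641 and 436.5 bp in KO (418 ± 76.4 against 539 ± 145, SD, n = 2; exact permutation p = 0.667), and the difference of 121 bp shrank to 18.5 bp without KO replicate 1. Its median fold enrichment was 3.58 and 4.31 in WT and 5.39 and 3.73 in KO (3.95 ± 0.519 against 4.56 ± 1.17, SD, n = 2; exact permutation p = 0.667), and the difference of 0.612 turned to -0.218 without KO replicate 1. The 2 genotypes overlapped in both measures. In the full lists the median widths did not overlap, at 364 and 357 bp in WT against 458 and 381 bp in KO (exact permutation p = 0.33, the smallest possible).

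In lists of equal length the location of peaks separated the genotypes. A gene boundary here is either end of a protein-coding gene with 1 kb on each side, because the gene table gives no strand. In lists of equal length, 31.8 and 30.6% of WT peaks and 29.7 and 30.1% of KO peaks had their summit at a gene boundary (31.2 ± 0.871 against 29.9 ± 0.338%, SD, n = 2), so that both KO libraries lay below both WT libraries by a mean of 1.31 points (exact permutation p = 0.33). Without WT replicate 1 the difference was -0.546 points. In the full lists the groups overlapped, at 31.8 and 26.1% in WT and 23.5 and 28.4% in KO (exact permutation p = 0.667). The share of peaks inside genes was 0.654 points higher in KO and that between genes 0.659 points higher, both without overlap. Inside genes the separation was slight, at 37.24 and 38.18% in WT and 38.53 and 38.19% in KO. Between genes the shares were 30.9 and 31.2% in WT and 31.8 and 31.7% in KO. All of these are parts of one whole, so they are not separate from the boundary share. For gene starts alone, from the strand-aware promoter table, the shares were 29.0 and 27.6% in WT and 26.8 and 27.5% in KO.

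The same contrast appeared in strength within the regions that all 4 libraries called. To compare them, the log2 fold enrichment of the strongest peak per region was put on one distribution over the 4 libraries by quantile normalization. On this normalized scale, 63.3% of the 8075 shared regions at a gene boundary were weaker in KO, with a median log2 difference of -0.066. Regions inside genes (n = 8095) had a median of +0.029 and regions between genes (n = 6564) +0.034, beside -0.0056 over all shared regions. Because normalization gives the 4 libraries one distribution, these are shifts relative to other regions. In deposited units the median fold enrichment of boundary regions overlapped between the genotypes, at 4.83 and 6.14 in WT and 7.02 and 4.82 in KO. Boundary regions stood above regions between genes by 0.352 and 0.372 log2 units in the WT libraries and by 0.261 and 0.245 in the KO libraries. The advantage of gene boundaries was thus lower in both KO libraries than in either WT library (0.362 ± 0.0139 against 0.253 ± 0.0113, SD, n = 2; exact permutation p = 0.33). With the deposited values in place of normalized ones it was 0.363 in WT and 0.255 in KO. KO minus WT it was -0.109, and -0.121 to -0.0931 when each library was left out in turn. Strength inside genes relative to strength between genes overlapped between the genotypes (difference -0.0089 log2 units, exact permutation p = 0.667).

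The shift followed distance from the gene. Regions with the summit within 100 bp of a boundary had a median difference of -0.074 (n = 4407), those from 101 to 500 bp -0.063 (n = 2849), those from 5001 to 20000 bp +0.016 (n = 4900), those from 20001 to 100000 bp +0.053 (n = 5313) and those more than 100000 bp away +0.11 (n = 1545). Width moved in the same direction at boundaries: their peaks covered 0.725 log2 units more than those between genes in WT and 0.636 in KO (exact permutation p = 0.33, no overlap). In the oxLDL libraries no WT list carries L001, so the mark is not balanced over the genotypes there either. The boundary advantage was measured over the 17530 regions called in all 8 libraries. It was 0.277 and 0.289 in untreated WT and 0.167 and 0.155 in untreated KO over these regions. In oxLDL it was 0.235 and 0.278 in WT, both L003, and 0.168 and 0.160 in KO, of which the first is L001 and the second L003. All 4 KO libraries were therefore below all 4 WT libraries, and the KO library with L001 stood at 0.168 beside 0.155 to 0.167 in the 3 with L003. Whether the mark affects this advantage was not tested.

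**Figure D2:**
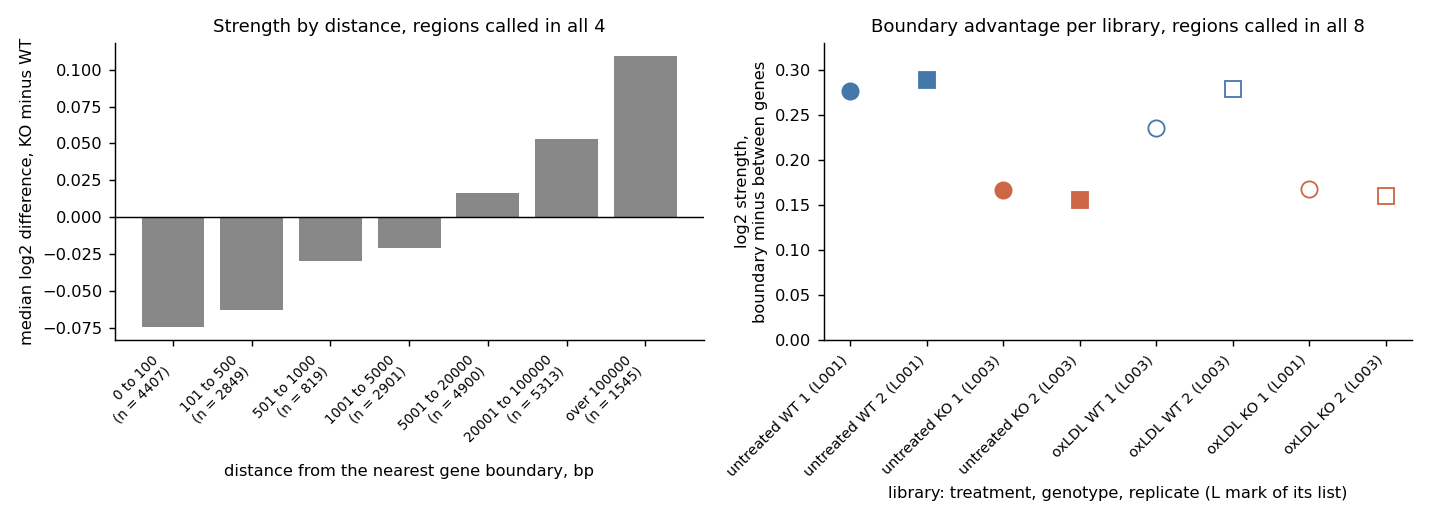
Left, median log2 difference in normalized strength (KO minus WT) of regions called in all 4 untreated libraries, by distance in bp from the nearest gene boundary; right, log2 strength of boundary regions minus that of regions between genes in each of 8 libraries (blue WT, orange KO; filled untreated, open oxLDL; circle replicate 1, square replicate 2). The difference runs from -0.074 within 100 bp to +0.11 beyond 100000 bp, and the 4 KO libraries lie at 0.155 to 0.168 against 0.235 to 0.289 in WT.

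Few single regions passed the test. Of the 22734 shared regions, 22 (0.0968%) were stronger in KO and 7 (0.0308%) weaker at an adjusted p under 0.05 (limma on normalized log2 fold enrichment, Benjamini-Hochberg over all regions), and 2556 had an unadjusted p under 0.05, 1399 of them higher and 1157 lower in KO. The 29 regions changed by 1.49 to 2.08-fold upwards, or to 0.564 to 0.654 of the WT level. In all 29 the normalized KO and WT values did not overlap, as in 4611 shared regions with both KO values higher and 4727 with both lower. Leaving out a library left 1 genotype with a single library, assumed to vary like the other. In such fits 0 regions passed without WT replicate 1 or without KO replicate 1, 21 and 14 passed without WT replicate 2, and 12 and 8 without KO replicate 2. With all libraries the median differences of the 22 stronger and 7 weaker regions were 0.751 and -0.739. They were 0.718 and -0.62 without WT replicate 1, and 0.69 and -0.655 without KO replicate 1. A kept direction was nearly fixed in advance here, because KO and WT values overlapped in none of the 29. With the caller's score in place of fold enrichment 0 regions passed (3021 at an unadjusted p under 0.05). For width 0 regions passed (0% of 22734; lowest limma adjusted p = 0.24), with 1598 at an unadjusted p under 0.05, but without WT replicate 1 the count was 146 wider and 19 narrower and without WT replicate 2 it was 253 and 7.

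The places of the called regions are given as counts without a test, beside 35.5% at a boundary, 35.6% inside genes and 28.9% between genes over all shared regions. Of the 7 weaker regions 4 lay over the start of a gene, and of the 22 stronger regions 1 did, while 10 lay inside genes and 11 between genes, 15 of them more than 10 kb from any gene boundary. The promoters of the 4 weaker and the 1 stronger gene starts are printed here because they are the gene starts at which single peaks passed the test. Each is the window from 250 bases before to 50 bases after the RefSeq start (GRCm38.p6, the assembly of mm10), 5′ to 3′ on the gene's strand. Capitals mark matches on either strand to the 7 motifs searched: NRF1 GCGCATGC, ETS CCGGAAGT, PU.1 GAGGAAGT, CRE TGACGTCA, AP-1 TGANTCA, E-box CACGTG and the box with the letters CCAAT. On the other strand the last of these reads as ATTGG. Matches are descriptions of letters and not of binding.
Urm1: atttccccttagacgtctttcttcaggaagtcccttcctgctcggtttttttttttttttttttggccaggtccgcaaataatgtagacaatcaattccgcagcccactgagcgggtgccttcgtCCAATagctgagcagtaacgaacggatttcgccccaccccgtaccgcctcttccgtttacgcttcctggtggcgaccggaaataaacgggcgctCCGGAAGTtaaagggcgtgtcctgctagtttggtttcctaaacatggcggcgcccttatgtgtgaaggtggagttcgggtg
Ylpm1: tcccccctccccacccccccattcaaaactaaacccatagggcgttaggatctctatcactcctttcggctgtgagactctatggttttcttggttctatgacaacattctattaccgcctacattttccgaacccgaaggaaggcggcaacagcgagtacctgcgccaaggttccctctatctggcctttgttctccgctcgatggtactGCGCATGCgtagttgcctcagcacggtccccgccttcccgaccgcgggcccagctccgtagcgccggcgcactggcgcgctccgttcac
Hp1bp3: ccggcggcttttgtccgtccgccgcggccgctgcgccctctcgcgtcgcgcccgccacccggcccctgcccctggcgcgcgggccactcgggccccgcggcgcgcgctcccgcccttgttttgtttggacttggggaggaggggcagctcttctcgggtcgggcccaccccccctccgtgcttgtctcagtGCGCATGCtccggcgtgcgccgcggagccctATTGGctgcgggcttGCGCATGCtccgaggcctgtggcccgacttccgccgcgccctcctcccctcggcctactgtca
Phospho2: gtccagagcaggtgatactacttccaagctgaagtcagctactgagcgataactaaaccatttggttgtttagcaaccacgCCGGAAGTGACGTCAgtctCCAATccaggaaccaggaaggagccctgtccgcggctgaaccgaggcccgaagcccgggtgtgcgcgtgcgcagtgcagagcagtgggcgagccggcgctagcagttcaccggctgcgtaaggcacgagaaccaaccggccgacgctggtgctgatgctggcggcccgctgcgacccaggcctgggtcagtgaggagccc
Cpox: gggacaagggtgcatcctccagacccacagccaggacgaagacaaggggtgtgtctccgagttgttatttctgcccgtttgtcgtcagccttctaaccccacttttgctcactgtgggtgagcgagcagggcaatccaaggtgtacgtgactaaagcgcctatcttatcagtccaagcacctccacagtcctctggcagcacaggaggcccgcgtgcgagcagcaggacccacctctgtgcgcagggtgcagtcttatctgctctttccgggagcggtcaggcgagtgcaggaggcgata
Ylpm1 held 1 NRF1 match, Hp1bp3 held 2 NRF1 matches and 1 CCAAT box, Urm1 held 1 ETS match and 1 CCAAT box, and Phospho2 held 1 ETS match running into 1 CRE, with 1 CCAAT box beside them. In the Cpox window none of the 7 was found. The ratio of observed to expected CpG was 1.09 for Urm1, 1.00 for Ylpm1, 0.983 for Hp1bp3, 0.817 for Phospho2 and 0.581 for Cpox.

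Urm1, which encodes a ubiquitin-like protein that carries sulphur for transfer RNA modification, had the largest decrease. Its start region (chr2:29826874-29828069) had a fold enrichment of 5.20 and 7.22 in WT and 4.28 and 3.46 in KO, so that both KO libraries were below both WT libraries (log2 difference -0.825 ± 0.184 SE, limma adjusted p = 0.0348). Ylpm1, a nuclear YLP-motif protein, stood at 7.05 and 7.26 in WT and 5.53 and 3.83 in KO over its start (chr12:84996106-84996709; -0.81 ± 0.17, limma adjusted p = 0.0264). At the start of Hp1bp3 (chr4:138216102-138217638), which encodes a linker histone-like protein that binds heterochromatin protein 1, the values were 6.28 and 7.08 against 5.72 and 3.56 (-0.74 ± 0.173, limma adjusted p = 0.0499). Phospho2, a phosphatase gene (chr2:69789247-69790629), had 7.60 and 8.29 against 5.86 and 4.88 (-0.739 ± 0.159, limma adjusted p = 0.0264). In these 4 promoters every WT value exceeded both KO values.

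The remaining decreases lay away from gene boundaries and included the smallest adjusted p of the comparison. A region inside Jarid2 (chr13:44869571-44870022), whose product is a subunit of Polycomb repressive complex 2, had a fold enrichment of 14.3 and 14.9 in WT and 10.1 and 10.01 in KO (-0.697 ± 0.117, limma adjusted p = 0.00273). Its peak covered 445 and 452 bp in WT and 174 and 193 bp in KO, a difference in width that did not pass (limma adjusted p = 0.489). A region 41131 bp from Chrm3, the muscarinic acetylcholine receptor M3 gene, had 8.57 and 7.84 against 6.55 and 4.91, and one 281855 bp from Pex2, a peroxisome assembly gene, had 11.4 and 12.03 against 8.43 and 8.83.

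Increases were found mostly at distal regions, led by one 12568 bp from Sdr16c6, a short-chain dehydrogenase gene (chr4:4089955-4090461). Its fold enrichment was 2.60 and 3.83 in WT and 8.81 and 5.79 in KO, a 2.08-fold increase on the normalized scale (log2 1.05 ± 0.19 SE, limma adjusted p = 0.00658). A region 37433 bp from Tes, which encodes the focal adhesion protein testin, had 3.04 and 3.01 against 8.82 and 4.91 (0.958 ± 0.193, limma adjusted p = 0.0264). One 74193 bp from the odorant receptor gene Olfr291 had 3.25 and 3.37 against 8.24 and 5.69. Inside Slx4ip, whose product binds the nuclease scaffold SLX4, the values were 2.93 and 4.56 against 8.94 and 5.79. In these 4 both KO libraries were higher, and KO replicate 1 was the higher of the pair in deposited units, as it was over shared regions in general, where the median fold enrichment was 4.00 and 4.89 in WT and 6.04 and 4.14 in KO.

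The other large increases were inside or near genes of varied function. Elp4, an Elongator subunit gene, held a region with 3.69 and 6.29 in WT and 12.1 and 6.77 in KO (log2 difference 0.781). Near Xrcc4, a DNA ligase IV cofactor, the strength was 4.01 and 4.56 against 9.19 and 7.55 (0.78), and peaks there covered 230 and 242 bp in WT but 1038 and 1050 bp in KO (limma adjusted p for width = 0.447). Near Akirin2, a nuclear factor of inflammatory gene transcription, they were 3.69 and 4.56 against 9.29 and 6.67 (0.771). Near the amino acid transporter gene Slc38a11 the log2 difference was 0.785, near Gm38481 0.816, and inside Ccser2 0.762. The 12 remaining increases, 0.572 to 0.751 on the log2 scale, included the one gene start, Cpox (chr16:58669844-58670676), the coproporphyrinogen oxidase of heme synthesis. Its promoter stood at 6.26 and 6.55 in WT and 13.0 and 9.94 in KO (0.665 ± 0.135, limma adjusted p = 0.0264), so that it went against the direction of most boundary regions. In 20 of the 22 regions the deposited peaks were also wider in both KO libraries than in either WT library, as in 34.1% of all shared regions. On normalized width 20 of the 22 were above 0, with a range of -0.039 to 1.82 log2 units, and none passed.

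**Figure D3:**
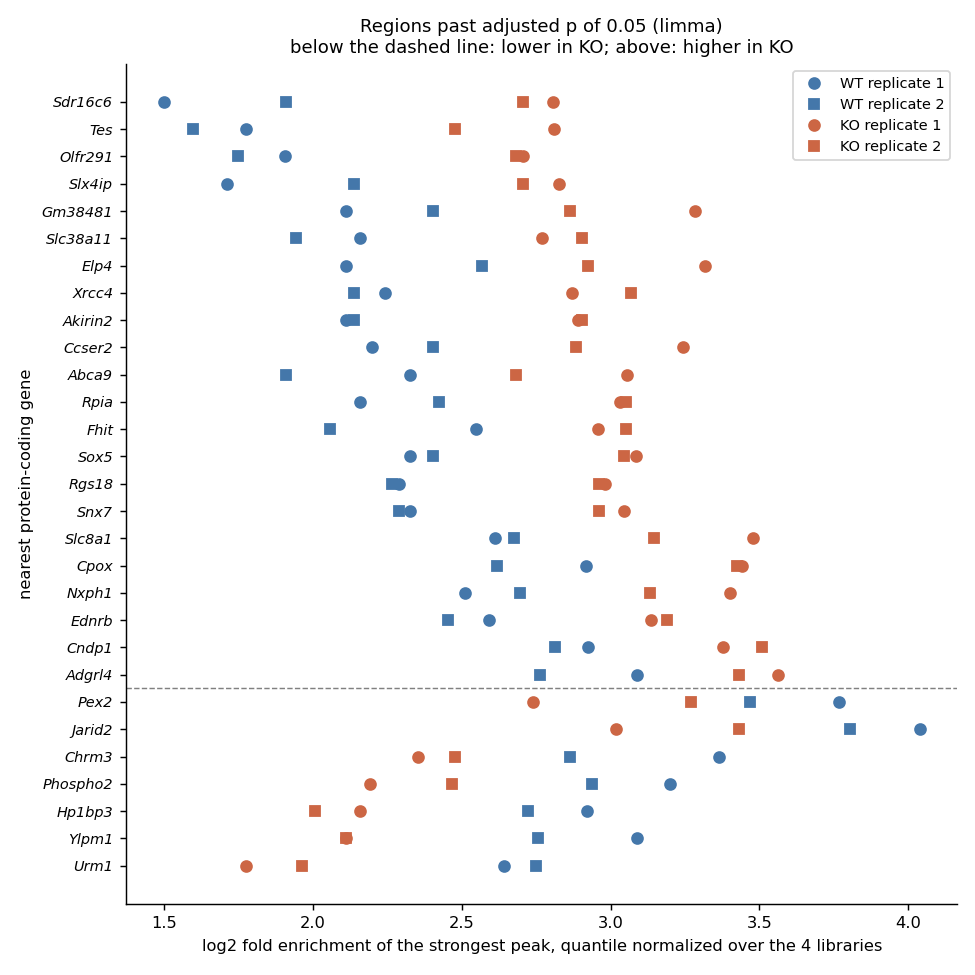
Normalized log2 fold enrichment of the 29 regions that passed the test, 1 row per region with its nearest gene, in the WT (blue) and KO (orange) libraries; circles are replicate 1 and squares replicate 2. In each row both KO points lie on one side of both WT points, from Sdr16c6 (log2 difference 1.05) at the top to Urm1 (-0.825) at the bottom.

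These 29 regions were looked up in the oxLDL libraries, which had no part in choosing them. All 29 were called in all 4 oxLDL libraries. In these, 18 of the 22 stronger and 7 of the 7 weaker regions had the same sign of KO minus WT, against 57.4% of the 17530 regions called in all 8. Those 17530 were not chosen for a large difference, so the 57.4% is not a matched comparison. KO and WT values did not overlap in oxLDL in 11 of the 22 and 4 of the 7. That count was not made over all regions in oxLDL, so whether it is unusual is unknown. Such separation is common with 2 libraries against 2. In the untreated libraries both KO values were above both WT values in 4611 of 22734 shared regions and below them in 4727. The differences were smaller: the median was 0.752 untreated and 0.229 in oxLDL for the stronger set, and -0.736 and -0.312 for the weaker set. Smaller values were likely in advance, because the 29 were chosen for a large difference in the untreated libraries. The 2 medians of a set are therefore not a comparison of treatments. Whether the difference itself changed with oxLDL was not tested. Sdr16c6 kept 0.95 and Rpia, which encodes ribose-5-phosphate isomerase, 0.761, while Cpox had 0.0607 and Hp1bp3 -0.0389. Between the 2 oxLDL KO libraries, the one with L003 was above the one with L001 in 12 of the 22 stronger and 2 of the 7 weaker regions (50.5% over all regions).

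Promoter sequence could be compared for 6413 shared regions whose summit lay within 300 bp of a start in the promoter table. Differences here are again in normalized strength, so they are relative to other regions. The 5263 regions at a promoter with an observed to expected CpG ratio of at least 0.6 had a median difference of -0.087, with 68.1% weaker in KO, while the 1150 at promoters below that ratio had +0.0026, with 49.7% weaker. CpG-rich promoters exceeded the others in strength by 0.199 and 0.239 log2 units in WT and by 0.122 and 0.131 in KO, without overlap. Ratios of at least 0.6 were found in 82.1% of these regions and 48.9% of all 20085 promoter windows.

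Among the 7 motifs, promoters with the NRF1 letters stood lowest. NRF1 is a transcription factor of nuclear genes for mitochondrial respiration that binds CpG-containing sites. The 434 regions with GCGCATGC (6.77%, against 3.55% of all promoter windows) had a median of -0.137, with 75.1% weaker in KO, beside -0.070 without it. Promoters with the motif exceeded those without by 0.113 and 0.0937 log2 units in WT and by 0.0137 and 0.049 in KO. Such a separation does not mark out NRF1, since the genotypes did not overlap in this measure for any of the 7 motifs. For ETS, for example, it was 0.0245 and 0.0347 in WT and 0.0219 and 0.0219 in KO. Within CpG-rich promoters, where NRF1 was the only motif examined, the medians were -0.139 with the motif (n = 406) and -0.085 without. There the shares with the motif were closer, at 7.71% of regions against 6.38% of promoter windows. Promoters with the E-box CACGTG (7.89% of all windows) had -0.106 (n = 705) and those with CCAAT (38.1% of all windows) -0.089 (n = 2669). The CRE (2.3% of all windows; n = 266) and the ETS motif (5.28%; n = 660) were near the median of -0.074 over all 6413, at -0.075 and -0.069. The PU.1 motif (3.18% of all windows; n = 208) had -0.033 and the AP-1 motif (7.06%; n = 280) -0.030. No exact test over these 4 libraries can go below p = 0.33, so these medians are descriptions. Distal peaks were not searched for motifs, because no genome sequence was used here.

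Regions called in 1 genotype and never in the other were more often KO regions. A KO region is one called in both KO libraries and in neither WT library, and a WT region is the reverse. There were 1834 KO regions (3.45% of 53155) and 355 WT regions (0.668%). Most calls found in few libraries belonged to single libraries: 8799 regions were called in KO replicate 1 alone, 4471 in WT replicate 2 alone, 2116 in KO replicate 2 alone and 1230 in WT replicate 1 alone. The excess depended on list length. In lists of equal length there were 1118 KO regions and 758 WT regions. WT regions numbered 180 when only peaks of at least 200 bp were used, and KO regions 1908.

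KO regions were mostly away from gene boundaries and close in strength to other regions called in part of the libraries. Their peaks had a median fold enrichment of 3.40 in KO replicate 1 and 2.75 in KO replicate 2, against 6.04 and 4.14 for regions called in all 4 and 3.18 and 2.75 for regions in neither set and not called in all 4. Only 7.91% lay at a gene boundary, 51.1% inside genes and 40.9% between genes, whereas of the regions called in all 4 libraries 35.5% lay at a boundary. WT regions lay at a boundary in 12.1% and between genes in 46.5%, with a median fold enrichment of 2.71 and 2.74. Of the WT regions 25.9% were shorter than 200 bp, against 8.12% of KO regions, 19.8% of all regions and 36.3% of the other regions not called in all 4. Of the other regions not called in all 4, 10.7% lay at a boundary.

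In the oxLDL libraries the KO regions were called more often in KO than in WT, and so were the WT regions. KO regions had a peak in 20.6 and 12.1% of cases in the oxLDL WT libraries and in 43.7 and 44.7% in the oxLDL KO libraries. For WT regions the shares were 17.5 and 12.4% in oxLDL WT and 29.6 and 27.3% in oxLDL KO. Over all 53155 regions the shares were 48.0 and 42.2% in oxLDL WT and 57.7 and 57.9% in oxLDL KO, so the KO libraries called more regions in general. Of the 1834 KO regions 286 (15.6%) were called in both oxLDL KO and neither oxLDL WT library and 4 showed the reverse, beside 5.98 and 0.307% of all regions. Of the 355 WT regions 23 (6.48%) were KO-only in oxLDL and 5 (1.41%) were WT-only, beside 5.98 and 0.307% of all regions. A further 167 (47.0%) were not called in any oxLDL library, against 34.0% of KO regions and 30.6% of all regions. The shares over all regions are not matched comparisons, because they include the 22734 regions called in all 4 untreated libraries. Of those 22734, 1.05% were not called in any oxLDL library, 3.19% were KO-only and 0.22% were WT-only in oxLDL. The other regions not called in all 4 were not counted apart.

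**Figure D4:**
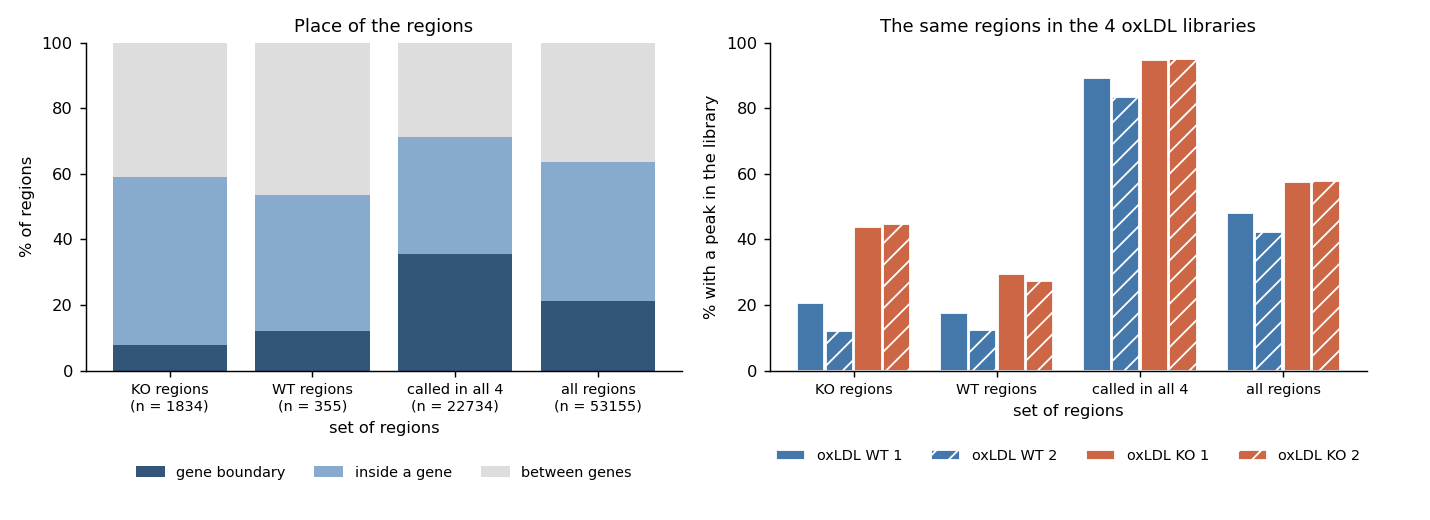
Left, percent of KO regions, WT regions, regions called in all 4 untreated libraries and all regions that lay at a gene boundary, inside a gene or between genes; right, percent of the same regions with a peak in each oxLDL library (blue WT, orange KO, hatched replicate 2). KO regions lay at a boundary in 7.91% against 35.5% of regions called in all 4, and were called in 43.7 and 44.7% in the oxLDL KO libraries against 20.6 and 12.1% in oxLDL WT. WT regions were also called more often in oxLDL KO, at 29.6 and 27.3% against 17.5 and 12.4% in oxLDL WT.

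The strongest KO region lay inside Gbe1, the glycogen branching enzyme gene (chr16:70506366-70506918), with a fold enrichment of 7.80 in KO replicate 1 and 5.98 in KO replicate 2 and no peak in WT. It was called in both oxLDL KO libraries and in 1 oxLDL WT library. One at the boundary of Tmem14a had 6.67 and 4.81, and one 5914 bp from Ascc3, a helicase gene, had 6.55 and 4.51. Both were called in 2 of 2 oxLDL KO and 0 of 2 oxLDL WT libraries. Inside Jak1, the cytokine receptor kinase, a region had 5.00 and 4.53, and one 64331 bp from Abcg2, an efflux transporter gene, had 4.41 and 4.71. The others of the 10 strongest lay near Tmem100 (4.48 and 4.53), near Stx7 (5.34 and 4.32), at the start of the dynein gene Dnah11 (5.41 and 4.32), near Triqk (4.66 and 4.32) and inside Terb1 (7.05 and 4.32). In oxLDL, the regions at Jak1, Tmem100 and Triqk had a peak in both KO and both WT libraries. Dnah11 was called in 2 KO libraries and 1 WT library, and in the same order Terb1 was called in 1 and 1, Abcg2 in 1 and 0 and Stx7 in 0 and 1. A region without a peak in WT is one the caller did not pass there, and its WT strength is unknown.

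The strongest WT regions were short, and several lay near genes of families with many copies. The first lay 264162 bp from Stmn2 (chr3:8245249-8245406), with a fold enrichment of 6.40 and 6.47 in WT and no peak in KO, although 2 of 2 oxLDL WT and 1 of 2 oxLDL KO libraries called it. Others lay near Gm21149 (5.00 and 4.47), near Gm38510 (4.22 and 4.26), inside Sp110 (4.14 and 4.28), near Speer4e (3.80 and 4.01), near Zfp980 (4.01 and 3.74), near Arrdc4 (4.01 and 3.69), inside Casq1 (3.67 and 3.73), and in a pair near Gm40469 (4.01 and 4.1, and 3.90 and 3.83). The megabases with the most WT regions, named after their counts were seen, lay on chromosome 17 (13000001 to 14000000, near Smok2a, Smok2b and Tcp10c) with 12 of 125 regions and on chromosome 1 (85000001 to 86000000, near Sp110 and Sp140) with 9 of 165. Among KO regions the highest count was 9 of 49, on chromosome 5 (43000001 to 44000000, near Bst1 and Cd38). Several of these families have near-identical copies, and how the authors placed reads that fit several copies is not given in the sources used here, so these calls are uncertain.

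The 15 gene lists of macrophage biology held 0 regions that passed limma's test for strength among 775 shared regions, with 34 higher and 41 lower at an unadjusted p under 0.05 (9.68%, against 11.2% of all shared regions). They are described by counts and medians beside those of all shared regions (median -0.0056; boundary regions -0.066). Regions were given to the nearest protein-coding gene. The lowest list was AP-1, the Fos and Jun family of stimulus-driven factors, with a median of -0.113 over 46 regions, 11 of them above 0, and -0.189 at its 10 boundary regions. SWI/SNF subunits had -0.074 over 53 regions and -0.135 at 17 boundary regions, of which 15 were below 0. Macrophage identity genes had -0.045 over 95 regions and -0.132 at 25 boundary regions, and interferon-stimulated genes -0.075 over 37 and -0.127 at 15.

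Most metabolic lists had a median below that of all shared regions. PPAR and lipid handling genes had a median of -0.097 over 47 regions, cholesterol efflux and LXR genes -0.055 over 66, antioxidant genes -0.064 over 66, lysosome and autophagy genes -0.067 over 66 and mitochondrial regulators -0.063 over 41. Sterol synthesis genes had the highest median of these, +0.066 over 34 regions, yet -0.104 at their 17 boundary regions. NF-kB inflammatory genes had +0.033 over 78 regions and -0.088 at 24 boundary regions, and unfolded protein response genes +0.026 over 45 and -0.108 at 18. Cell cycle genes (-0.0078 over 66 regions), alternative activation genes (+0.0057 over 44) and modified LDL uptake genes (-0.00045 over 38) were near the median of all regions. Boundary medians were thus below 0 in 14 of the 15 lists of macrophage biology, as they were over all genes.

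**Figure D5:**
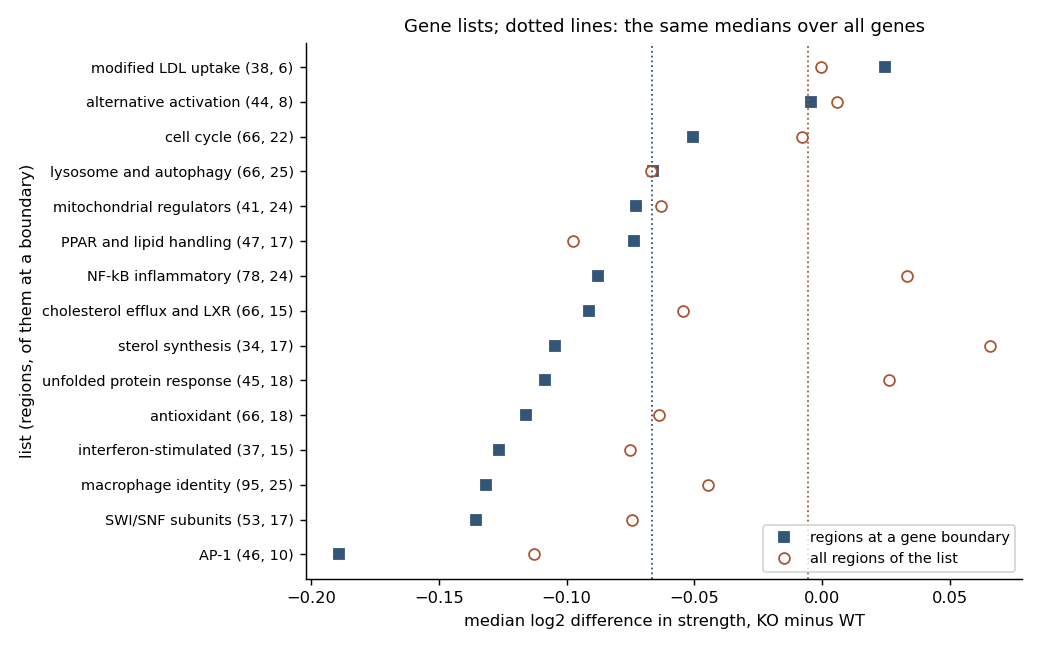
Median log2 difference in strength (KO minus WT) of the regions nearest the genes of each list, for all shared regions of the list (open circles) and for those at a gene boundary (filled squares), with the number of each in brackets; dotted lines give the medians over all genes, -0.0056 and -0.066. AP-1 is lowest at -0.113 and -0.189, and sterol synthesis is highest over all its regions at +0.066.

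Over the 15 lists, KO regions made up 1.11 to 6.59% of a list's regions and WT regions 0 to 4.82%, against 3.45 and 0.668% of all regions. Modified LDL uptake genes, which take up oxidised lipoproteins, had 7 KO regions among 108 (6.48%). Of these, 3 lay inside Cd36, a scavenger receptor gene, at a fold enrichment of 3.42 and 2.65, 2.82 and 2.94, and 4.84 and 2.35 in the KO libraries. Others lay near Marco (2.64 and 2.94), inside Scarb1 (2.80 and 2.38) and at Megf10 (4.03 and 2.65). Unfolded protein response genes had 6 KO regions among 91 (6.59%), all of them between genes. These lay 3258 to 60128 bp from Asns, Dnajb9, Herpud2, Sel1l or Xbp1. Alternative activation genes had 5 among 113 (4.42%), 3 of them far from Klf4, with 1 at the boundary of Arg1 (2.75 and 2.74) and 1 inside Il4ra (3.05 and 3.11). Macrophage identity genes had 6 among 217 (2.76%), including 1 inside Spi1, the gene of PU.1 (3.55 and 2.14). The 3 inside Cd36 and the 1 near Marco are among these 6 too, because both genes are in both lists. The SWI/SNF list had 2 among 118, inside Bicra and at the start of Phf10 (3.02 and 3.04).

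WT regions of the lists were fewer. Interferon-stimulated genes had 4 among 83 (4.82%): 2 inside Sp110 and 1 inside Sp140, within the same megabase of chromosome 1, and 1 at Ifit3 (2.61 and 3.02). Cell cycle genes had 3 among 147, including 1 at the boundary of Ccnd1, the cyclin D1 gene (2.94 and 2.49). Atf3, in the AP-1 list, had 1 WT region 2556 bp away (2.33 and 2.31), and Ccl4, a chemokine gene, had 1 (2.82 and 2.96). Macrophage identity, PPAR and lipid handling, modified LDL uptake, sterol synthesis, antioxidant, lysosome and autophagy and alternative activation genes had 0 WT regions. Sp110 also held 1 KO region (4.29 and 4.18).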

How the data were processed

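ATAC-seq (paired-end, read length 150, per the labels' protocols) was analysed for 4 untreated libraries. Build mm10, the aligner Bowtie2 2.3.4.1 and the peak caller MACS2 are listed beside SAMtools 1.2, bedtools 2.28.0, Picard, FastQC, cutadapt and Trim Galore, per the submitters' processing notes. Parameters, such as a Tn5 shift, duplicate removal or treatment of multiply mapped reads, are not stated in the sources at hand. The authors deposited 1 peak list per library, with a caller score, a fold enrichment (a ratio over local background) and the -log10 of p and q for each peak. Apart from at most 11 peaks in a library, the deposited score equals the integer part of 10 times -log10 q. Longer or stronger lists may reflect depth, which is unknown.

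Peaks were merged where they overlapped by 1 bp. Single values per library were tested with a two-sided exact permutation test (scipy 1.17.1). Regions called in all 4 libraries were tested with limma 3.58.1 (trended, R 4.3.3) on quantile-normalized log2 values, with Benjamini-Hochberg adjustment and a threshold of 0.05. The fit was tested on simulated data. Gene ends (20665 autosomal coding genes, without strand) were taken from RefSeq (GRCm38.p6), and promoters from its sequence table, which held 16457 of these genes and none on chromosome 18. The planned share of peaks at gene starts therefore became the share at gene boundaries. Of 470 genes in 22 lists, 461 matched. Python 3.11.15 with numpy 2.4.6, pandas 2.3.3 and matplotlib 3.10.9 did the rest.

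The members, lists and tests were chosen with earlier results of these data known. Named were Smarcd1, Smarcd2, Smarcd3, Lyz2 and Apoe, the 10 KO and 10 WT regions whose weaker peak was strongest, the 10 regions per direction with the largest difference among those past the threshold without overlap, and list members whose region was a KO or WT region. Other genes named from the called regions (Cpox, Rpia) were chosen after their values were seen. Alternatives covered list length, a -log10 q of at least 5, a distance of 2.5 kb, covered base pairs, 200 bp around summits, median centring, the score, regions with 1 peak per library, the replicate number as a block and leaving out each library. Promoter-table starts, a 200 bp minimum width and all alternatives for the boundary advantage were added after seeing the data. One list member is not reported here.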

Additional observations from a re-analysis of the deposited data

How the results depend on the processing

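Depth is unknown, 2 libraries a genotype cannot give an exact p under 0.33, and mark and genotype coincide in the untreated libraries. The log2 ratio of peak numbers (main 0.186) ranged from -0.039 to 0.42 when each library was left out in turn, the width difference (121 bp) from 18.5 to 223 bp, the difference in fold enrichment (0.612) from -0.218 to 1.44, the boundary share (-1.31 points) from -1.93 to -0.546 and the boundary advantage in strength (-0.109) from -0.121 to -0.0931. Under the other settings these 5 kept their direction, the boundary share at -3.05 in full lists, -1.96 at a -log10 q of at least 5, -2.02 at 2.5 kb and -1.15 by starts of the promoter table.

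KO regions (1834) numbered 1118 in lists of equal length and 2367 to 10695 with 1 library left out, which by construction asks for fewer libraries. WT regions (355) numbered 758 in lists of equal length, 178 at a -log10 q of at least 5, 765 with 200 bp around summits, 180 with peaks of at least 200 bp and 558 to 4842 with 1 library left out.

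Regions stronger in KO (22) numbered 0 by the score and 0 to 21 with 1 library left out (12 without KO replicate 2), and 27, 32 and 24 with median centring, lists of equal length and 1 peak per library. Regions weaker in KO (7) numbered 14 with median centring, 14 in lists of equal length, 0 by the score and 0 to 14 with 1 library left out (14 without WT replicate 2). The cause was not tested. With the replicate number as a block, 28 regions were stronger and 11 weaker, and 55 were wider and 7 narrower against 0 and 0 without it. The numbers do not pair the samples by any label, and same-numbered libraries did not deviate together (correlation of deviations -0.099 for strength and -0.078 for width). Regions wider in KO numbered 0 to 253 and narrower 0 to 19 with 1 library left out. In every fit in which the 29 called regions were tested they kept their sign. That was nearly fixed in advance, because these fits reuse the same libraries and the KO and WT values of the 29 did not overlap. With median centring 17 of 22 and 6 of 7 still passed.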
